A study of Mus musculus with 12 samples.

Results

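The LRRC8 genes encode the subunits of the volume-regulated anion channel, and the 5 mouse members, *Lrrc8a* to *Lrrc8e*, were taken by name from a left atrial expression table of 54658 gene names. The family was chosen by the measured expression difference between the groups compared here, so its members' differences between those groups are given as a description, with no test. Left atria (LA) came from 6 littermate control mice carrying *αMHC-rtTA* alone and from 6 iNICD mice carrying *αMHC-rtTA* with *tetO_NICD*. In the iNICD mice doxycycline turns on the intracellular domain of Notch1. The αMHC promoter drives the transactivator in cardiomyocytes, whereas RNA was taken from whole atrial tissue. Mice of both genotypes were 2 to 3 months old, of mixed genetic background, and received doxycycline chow for 3 weeks with no washout. The control group held 4 females and 2 males, and the iNICD group 3 and 3.

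LRRC8 channels are hexamers that open when cells swell and let chloride and small organic osmolytes such as taurine leave, which draws water out of the cell. LRRC8A is required in every functional channel, and it assembles with at least 1 of the other members, LRRC8B to LRRC8E, which set the current and the substrates. LRRC8D-containing channels pass larger organic molecules including taurine and cisplatin, whereas LRRC8C- and LRRC8E-containing channels are known to carry the immune messenger cyclic GMP-AMP. In the heart, swelling-activated chloride currents have long been recorded in atrial and ventricular myocytes.

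*Lrrc8a* lies on chromosome 2 (chr2:30237715-30263790, GRCm38). *Lrrc8b* (chr5:105415775-105490074), *Lrrc8c* (chr5:105519388-105613018) and *Lrrc8d* (chr5:105699969-105832436) follow each other on chromosome 5, and *Lrrc8e* (chr8:4226827-4237470) is alone on chromosome 8. All 5 are on the plus strand. The 250 bases before the RefSeq start of *Lrrc8e* and of the obligatory subunit *Lrrc8a* are shown because these windows differed in their content of the dinucleotide CG, which is in capitals. Both are plus-strand RefSeq sequence of GRCm38.p6, at chr8:4226577-4226826 for *Lrrc8e* and chr2:30237519-30237768 for *Lrrc8a*, whose RefSeq start, at base 30237769, lies inside the gene span given above.
Lrrc8e: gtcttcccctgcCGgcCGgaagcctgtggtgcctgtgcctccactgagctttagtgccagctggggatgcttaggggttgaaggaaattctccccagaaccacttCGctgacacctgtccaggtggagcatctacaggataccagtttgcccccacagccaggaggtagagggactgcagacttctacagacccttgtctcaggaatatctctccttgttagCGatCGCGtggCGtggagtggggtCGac
Lrrc8a: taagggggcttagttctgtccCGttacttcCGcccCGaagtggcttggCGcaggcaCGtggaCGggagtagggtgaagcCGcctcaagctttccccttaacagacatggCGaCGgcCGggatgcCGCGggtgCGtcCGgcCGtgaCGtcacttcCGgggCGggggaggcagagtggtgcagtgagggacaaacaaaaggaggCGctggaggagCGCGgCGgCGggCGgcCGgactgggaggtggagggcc
The *Lrrc8e* window held 8 CG dinucleotides and 58% G or C. Windows of the other members held 24 to 43 CG dinucleotides and 68% to 78.4% G or C. Among the 32851 upstream windows of this length, the medians were 6 CG dinucleotides and 52.4% G or C, and 57.0% of windows held fewer CG dinucleotides than that of *Lrrc8e*, against 89.3% for *Lrrc8a*. The letters TGGGAA, the recognition core of RBPJ, through which NICD acts on DNA, were searched on both strands. They occurred in none of the 6 windows of the 5 members (*Lrrc8d* has 2 starts) and in 21.6% of all windows, which says only that these letters are not in these 250 bases.

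The libraries held 21432632 to 27182038 counts on genes. *Notch1* was at 118 ± 10.01 normalized CPM (read counts scaled to library size with TMM factors) in control LA and 3408 ± 441 in iNICD LA (SD, n = 6 each), in accord with all 12 labels. Control replicate 5 stood apart on the first principal component, at -77.4 against -20.2 to 7.98 for the other controls. Of 13541 genes tested, 558 differed between iNICD and control LA (4.12%), of which 377 were higher (2.78%) and 181 lower (1.34%; edgeR's quasi-likelihood test, Benjamini-Hochberg adjusted p under 0.05). The tissue label was borne out by atrial cardiomyocyte markers, whose summed level was 84694 to 108010 normalized CPM in control LA (95380 at most without control replicate 5) and 55374 to 68366 in iNICD LA, with 5 of 7 markers lower (*Myl7*, *Myl4*, *Sln*, *Nppa* and *Tnnt2*). On the lists of endothelial, fibroblast, mural, macrophage, mesothelial, adipocyte, epithelial, Schwann, lymphocyte, red cell and ventricular markers, 31 of 40 genes were tested. Of these, 0 passed by edgeR's quasi-likelihood test, 4 had an unadjusted p under 0.05, and DESeq2 called 2, *Krt18* and *Alas2*, both lower. The 4 included all 3 red cell markers. Their summed level was 47.0 to 221 normalized CPM in control LA (median 138) and 23.1 to 124 in iNICD LA (median 47.0). In bulk tissue, fewer cells of a type and less RNA per cell cannot be told apart.

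*Lrrc8e* was the 1 of 5 members whose groups did not overlap. In control LA it ranged from 0.515 to 1.16 normalized CPM with a median of 0.600, from 11 to 25 reads a library. In iNICD LA it ranged from 49.7 to 85.2 with a median of 54.3, from 1207 to 2249 reads. Every iNICD library lay above every control library, and the lowest iNICD level was 43.0-fold the highest control level. The means were 0.675 ± 0.240 and 59.4 ± 13.5 normalized CPM (SD, n = 6 each), a ratio of 88.0, and the fitted log2 fold change was 6.46 ± 0.21 (SE; 95% interval 6.04 to 6.88). *Lrrc8e* passed the filter on low counts only through the iNICD libraries, since 1 of 6 control libraries exceeded 1 CPM against 6 of 6 iNICD libraries. Groups did not overlap for 2.58% of all tested genes in this direction and for 3.83% in either, and this is the contrast by which the members were chosen.

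Among the controls, replicate 6 held the highest *Lrrc8e* level, 1.16 normalized CPM against 0.627 in the next. Among the iNICD libraries, replicate 4 held the highest, 85.2 against 62.5 in the next. Without control replicate 6 the log2 fold change was 6.66, without iNICD replicate 4 it was 6.33 and without control replicate 5 it was 6.40. Summed ventricular markers (*Myl2*, *Myh7* and *Irx4*, the last at 0 throughout) reached 2230 normalized CPM in iNICD replicate 4 and 16.3 to 1142 in the other iNICD libraries. They spanned 18.7 to 2156 in control LA, where control replicate 3 was the highest and had *Lrrc8e* at 0.579, and their part in the *Lrrc8e* level of iNICD replicate 4 was not tested. In iNICD replicates 2 and 6, where these markers summed to 16.3 and 30.3, *Lrrc8e* stood at 55.9 and 52.7. Epithelial markers summed to 10.8 to 34.5 normalized CPM in control LA (19.4 at most without control replicate 5) and 6.82 to 13.9 in iNICD LA.

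The obligatory subunit *Lrrc8a* ranged from 14.02 to 25.7 normalized CPM in control LA, with a median of 17.9, and from 14.4 to 19.9 in iNICD LA, with a median of 15.2. All 6 iNICD libraries lay within the control range. The log2 fold change was -0.23 ± 0.14 (SE; 95% interval -0.50 to 0.04), and without control replicate 5 it was -0.12. The exons of *Lrrc8a* share 2853 of their 4308 bases, including all 2430 coding bases, with *Gm28035*, a readthrough gene on the same strand that itself held 2 to 21 reads a library. Reads from those bases cannot be assigned to 1 of the 2 genes, so the level of *Lrrc8a* relative to other genes is uncertain.

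*Lrrc8c*, a partner subunit known from endothelial cells, adipocytes and T cells, ranged from 25.1 to 49.3 normalized CPM in control LA, with a median of 30.6, and from 33.6 to 43.5 in iNICD LA, with a median of 39.1. The iNICD libraries fell inside the wider control range, with SDs of 3.86 and 9.95. The log2 fold change was 0.16 ± 0.16 (SE; 95% interval -0.16 to 0.48), and it was 0.29 without control replicate 5, 0.094 without control replicate 3 and 0.088 without control replicate 6. Summed endothelial markers were 658 to 961 normalized CPM in control LA, with control replicate 5 the highest (816 at most without it), and 622 to 750 in iNICD LA.

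*Lrrc8d*, the subunit of channels that pass larger osmolytes, ranged from 16.1 to 19.4 normalized CPM in control LA (median 18.2) and from 14.96 to 23.1 in iNICD LA (median 19.0). The iNICD libraries spread to both sides, with 2 above and 1 below all controls. Its log2 fold change was 0.10 ± 0.10 (SE; 95% interval -0.10 to 0.29), 0.034 without iNICD replicate 2, 0.060 without iNICD replicate 1 and 0.16 without iNICD replicate 5.

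*Lrrc8b*, the partner whose contribution to the channel is least settled, ranged from 8.65 to 15.4 normalized CPM in control LA (median 13.7) and from 10.99 to 14.5 in iNICD LA (median 13.5). Its group means were both 13.1, and the 95% interval of its log2 fold change ran from -0.26 to 0.25. Across all tested genes the 5th to 95th percentiles of the log2 fold change were -0.45 to 0.49 with a median of -0.01, a span that held the estimates of *Lrrc8a* to *Lrrc8d*.

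**Figure D1:**
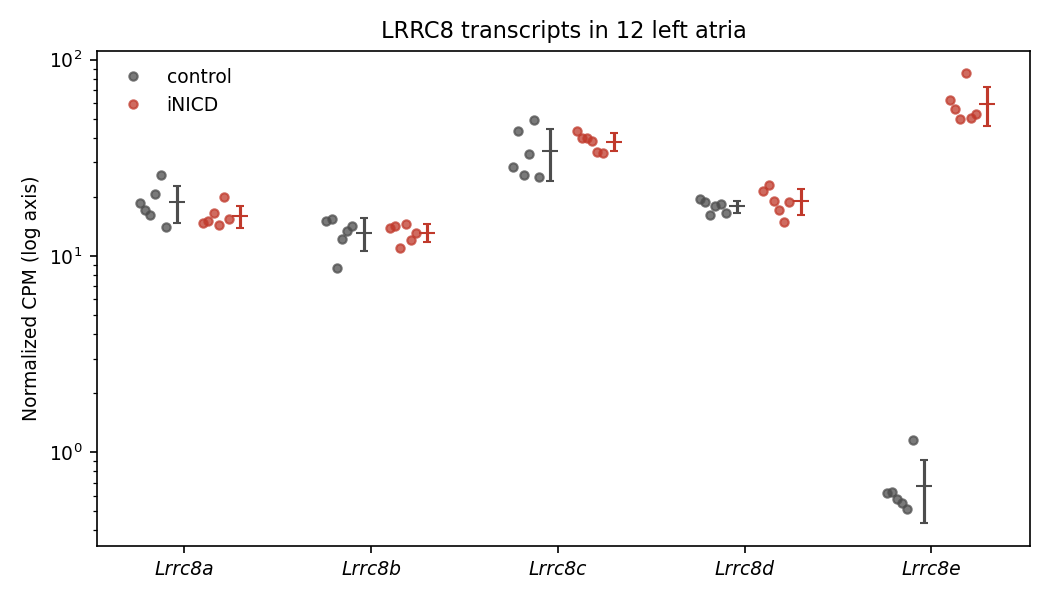
Normalized CPM (log axis) of the 5 LRRC8 genes in each of 6 control and 6 iNICD left atria; points are libraries, and the bar beside them is the mean with its SD. *Lrrc8e* lies at 0.515 to 1.16 in control and 49.7 to 85.2 in iNICD LA, while the groups overlap for the other 4 genes.

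Levels of different subunits were compared per length, as CPM divided by the kilobases of exon that the deposited table gives. In control LA *Lrrc8c* and *Lrrc8a* were the highest, at 4.46 and 4.35 CPM per kilobase, followed by *Lrrc8b* at 1.95, *Lrrc8d* at 1.42 and *Lrrc8e* at 0.163. *Lrrc8c* exceeded *Lrrc8a* in 3 of 6 control libraries. The mean log2 difference was 0.02 ± 0.27 (SD), which did not pass the threshold (two-sided exact paired permutation test, adjusted p = 0.969). *Lrrc8a* exceeded *Lrrc8b* by 1.15 and *Lrrc8b* exceeded *Lrrc8d* by 0.44 on the log2 scale, each in 6 of 6 libraries. Both gave an exact p of 0.03125, the smallest that 6 libraries allow, and an adjusted p of 0.0417 over the 8 pairs of neighbours, or 0.0469 over the 6 pairs without *Lrrc8e*. *Lrrc8d* lay 3.18 above *Lrrc8e*, in 6 of 6 libraries, given with no test because *Lrrc8e* was chosen for its level. *Lrrc8e* ranked 13431 of the 13541 tested genes by level per length in control LA, a place that the filter on low counts bears on, since *Lrrc8e* passed it through the iNICD libraries.

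In iNICD LA *Lrrc8e* headed the order, at 14.4 CPM per kilobase, and ranked 2849 of 13541. It was above *Lrrc8c* (4.99) in 6 of 6 libraries by 1.51 ± 0.28 on the log2 scale (SD), again given with no test. *Lrrc8c* exceeded *Lrrc8a* (3.71) in 5 of 6 libraries by 0.43 ± 0.28, which missed the threshold (exact adjusted p = 0.0714, or 0.075 over 6 pairs). *Lrrc8a* was above *Lrrc8b* (1.95) by 0.92 and *Lrrc8b* above *Lrrc8d* (1.52) by 0.37, each in 6 of 6 libraries with an exact adjusted p of 0.0417, or 0.0469 over 6 pairs. *Lrrc8a* ranked 7287 in control and 7908 in iNICD LA, and *Lrrc8c* 7196 and 6734.

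The order within *Lrrc8a* to *Lrrc8d* rests on the lengths. The table's length for *Lrrc8d*, 12573 bases, joins the exons of all its transcripts, whereas the annotated transcript with its longest coding sequence has 3929 bases. With transcript lengths, *Lrrc8d* came out above *Lrrc8b* by 1.24 on the log2 scale in control LA and 1.31 in iNICD LA. Its mean then also lay above that of *Lrrc8a*, given with no test. The values were 4.54 against 4.35 CPM per kilobase in control LA and 4.86 against 3.71 in iNICD LA. With coding lengths, *Lrrc8a* lay 0.50 above *Lrrc8b* in control and 0.27 in iNICD LA, which missed the threshold (exact adjusted p = 0.0625 each). *Lrrc8c* then lay 0.86 above *Lrrc8a* in control and 1.27 in iNICD LA, past the threshold in both (exact adjusted p = 0.0417). With transcript lengths it lay 0.15 above *Lrrc8a* in control LA (exact adjusted p = 0.25) and 0.56 in iNICD LA (exact adjusted p = 0.0357). The adjusted p with coding and transcript lengths were taken over all pairs of neighbours, including those with *Lrrc8e*, which was chosen for its level. They were not recomputed without the *Lrrc8e* pairs, so passing the threshold was shown only with those pairs counted. When its whole count was divided by the 1455 exon bases that it does not share, with no reads recounted, *Lrrc8a* stood at 12.9 ± 2.80 CPM per kilobase in control LA and 10.98 ± 1.399 in iNICD LA, above *Lrrc8c* in both groups. *Lrrc8e* kept the lowest mean level in control LA and the highest in iNICD LA under each of the 4 lengths tried.

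Summed per kilobase, the 5 genes reached 12.3 ± 2.25 in control LA and 26.5 ± 3.28 in iNICD LA (SD, n = 6 each), 2.15 times as much. *Lrrc8a* to *Lrrc8d* together were at 12.2 ± 2.29 and 12.2 ± 0.537. *Lrrc8e* made up 1.397% ± 0.688 of the sum in control LA, with a range of 0.780% to 2.73%. It made up 53.7% ± 5.05 in iNICD LA, with a range of 49.7% to 63.5%. The share of *Lrrc8a* was 35.2% ± 3.74 in control and 14.2% ± 3.05 in iNICD LA. These are shares of transcripts and were not measured in protein or in assembled channels.

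The remaining partner shares followed from the same sum. *Lrrc8c* made up 35.6% in control and 18.9% in iNICD LA, *Lrrc8b* 16.0% and 7.39%, and *Lrrc8d* 11.7% and 5.78%. When *Lrrc8e* was left out of the sum, *Lrrc8a* made up 35.7% and 30.5%, *Lrrc8b* 16.3% and 16.1%, *Lrrc8c* 36.1% and 40.9%, and *Lrrc8d* 11.9% and 12.5%. The length used moved the shares more than any single library did. The *Lrrc8e* share in iNICD LA was 41.0% with coding lengths, 48.5% with transcript lengths and 42.1% when the *Lrrc8a* count was divided by its unshared exon length, in which case *Lrrc8a* made up 61.5% in control and 32.7% in iNICD LA. The *Lrrc8e* share in control LA was 0.862% with coding lengths, 1.14% with transcript lengths and 0.834% with the unshared *Lrrc8a* length. The *Lrrc8d* share was 20.4% in control and 12.4% in iNICD LA with coding lengths, and 28.9% and 15.6% with transcript lengths.

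**Figure D2:**
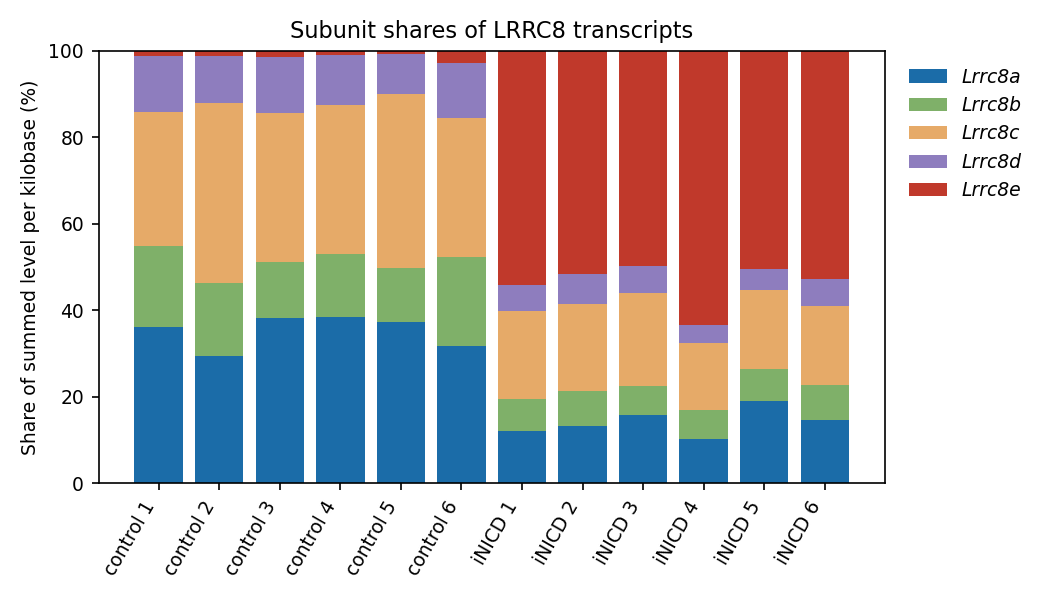
Share (%) of each LRRC8 gene in the summed level per kilobase, 1 stacked bar for each of the 6 control and 6 iNICD libraries. *Lrrc8e* takes 0.780% to 2.73% of the sum in control LA and 49.7% to 63.5% in iNICD LA.

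**Figure D3:**
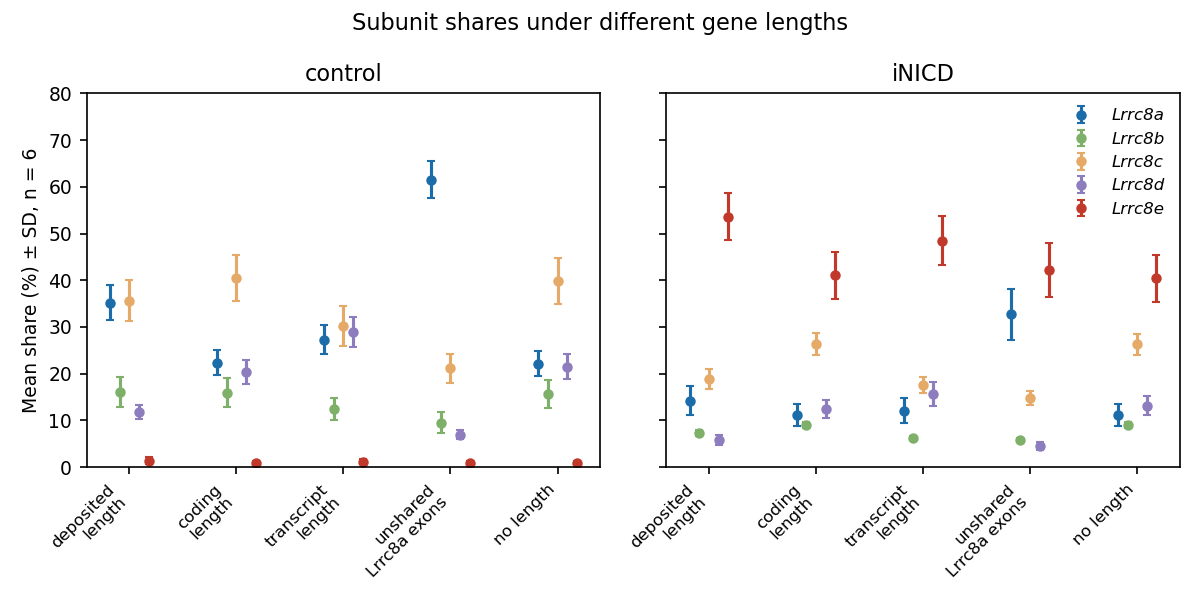
Mean share (%) of each LRRC8 gene, with its SD over 6 libraries, under 4 choices of gene length and with no division by length, for control (left) and iNICD LA (right). The *Lrrc8e* share in iNICD LA lies between 40.4% and 53.7%, while that of *Lrrc8a* in control LA spans 22.2% to 61.5%.

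Sex was not part of the choice of members and was tested for *Lrrc8a* to *Lrrc8d*. The value of *Lrrc8e* is given as a description, since it passed the filter on low counts only through the iNICD libraries. In male against female LA, with genotype in the model, the log2 differences were 0.11 for *Lrrc8a*, 0.06 for *Lrrc8b*, -0.02 for *Lrrc8c*, -0.19 for *Lrrc8d* and 0.24 for *Lrrc8e*. *Lrrc8a* to *Lrrc8d* did not pass the threshold (edgeR's quasi-likelihood test, adjusted p from 0.362 to 0.962), and none of them had an unadjusted p under 0.05. Of all tested genes 0.288% passed. Single libraries moved several of these estimates. That of *Lrrc8b* ran from -0.0065 without control replicate 3 to 0.11 without control replicate 2. Without control replicate 5 the estimates were -0.06 for *Lrrc8a* and -0.28 for *Lrrc8c*, without control replicate 6 they were 0.24 and 0.08, and that of *Lrrc8e* was 0.06 without iNICD replicate 4 and 0.12 without control replicate 6. The lowest adjusted p was that of *Lrrc8d*, whose difference was -0.19 ± 0.09 (SE). Its 3 iNICD females held 19.1 to 23.1 normalized CPM and the 3 iNICD males 14.96 to 18.8, without overlap, as was so for 20.5% of all tested genes, whereas the control females (16.1 to 19.4) and males (16.6 to 18.3) overlapped.

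The sex by genotype interaction was tested for *Lrrc8a* to *Lrrc8d*, and 0 of 4 passed (edgeR's quasi-likelihood test, adjusted p from 0.916 to 0.992). The estimates, -0.03, -0.08, -0.41 and -0.27 on the log2 scale, rest on 2 male controls. Without control replicate 5 those of *Lrrc8a* and *Lrrc8c* were 0.46 and 0.15, and without control replicate 6 they were -0.40 and -0.81. That of *Lrrc8b* ran from -0.20 without control replicate 2 to 0.07 without control replicate 3. For *Lrrc8e* the values are a description: it was at 49.7 to 62.5 normalized CPM in 3 iNICD females and 50.4 to 85.2 in 3 iNICD males, against 0.553 to 0.627 in 4 control females and 0.515 and 1.16 in the 2 control males. Across all genes 0 passed for the interaction (0%), and 501 had an unadjusted p under 0.05.

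Other genes of chloride transport and cell volume were examined from lists, of which 62 of 78 genes were tested. Of these, 1 was higher and 1 lower in iNICD LA (3.23%, against 4.12% of all genes), and the median log2 fold change was -0.02, against -0.01 over all genes. An unadjusted p under 0.05 was reached by 17 of the 62 (27.4%) and by 17.4% of all tested genes. Among other chloride channels, 1 of 21 tested genes was higher and 0 lower. This was *Ttyh3*, a tweety family membrane protein with proposed anion channel activity, which ranged from 22.5 to 33.7 normalized CPM in control LA (median 31.5) and from 35.4 to 40.7 in iNICD LA (median 38.9). The groups did not overlap, and the log2 fold change was 0.38 ± 0.09 (SE; adjusted p = 0.0324 by edgeR's quasi-likelihood test). *Ano4* (0.49, adjusted p = 0.0548) and the endosomal chloride transporter gene *Clcn3* (0.21, adjusted p = 0.0596) missed the threshold but were past it by DESeq2. Of the 2 pannexins tested, *Panx1* and *Panx2*, 0 passed by edgeR or DESeq2 or had an unadjusted p under 0.05.

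Of 17 tested cotransporters and volume-sensing kinases, 0 passed the test (edgeR's quasi-likelihood test), 4 had an unadjusted p under 0.05, and DESeq2 called 2, *Slc12a5* and *Wnk1*. *Wnk1*, a chloride-sensing kinase that regulates cation-chloride cotransporters, had a log2 fold change of 0.20 and missed the threshold (edgeR adjusted p = 0.0781).

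Of the 8 tested genes of osmolyte transport and synthesis, 0 passed the test (edgeR's quasi-likelihood test), 5 had an unadjusted p under 0.05, and DESeq2 called 1, *Slc6a6*. The taurine transporter gene *Slc6a6* had means of 202 (control LA) and 148 normalized CPM (iNICD LA; edgeR adjusted p = 0.122), and the myo-inositol transporter gene *Slc5a3* had 35.7 and 23.3 (adjusted p = 0.244). *Gadl1*, an amino acid decarboxylase gene, had the largest fold change on the lists, 2.08 ± 0.95 on the log2 scale (SE), but its libraries spread from 0.281 to 12.8 normalized CPM in control LA and 1.29 to 28.6 in iNICD LA and it did not pass (adjusted p = 0.279). *Gadl1*, *Slc6a6*, *Slc5a3*, *Ano4*, *Clcn3*, *Slc12a5* and *Wnk1* were named after their values were seen.

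The cyclic dinucleotide list held 6 tested genes. They make, sense, degrade or carry these molecules, the cargo of LRRC8C and LRRC8E channels, or signal downstream of the sensing. By edgeR or DESeq2 0 passed the test, and the median log2 fold change was -0.15. The 2 with an unadjusted p under 0.05, *Irf3* and *Tbk1*, are both of the downstream kind. Of 8 tested signalling partners of LRRC8A, 1 was lower and 0 higher. *Akt2*, a kinase of the insulin pathway, ranged from 86.7 to 111 normalized CPM in control LA (median 110.5) and from 71.6 to 87.3 in iNICD LA (median 83.0), so that the groups overlapped at their ends. Its log2 fold change was -0.35 ± 0.08 (SE; edgeR adjusted p = 0.0246). The calls of *Ttyh3* and *Akt2* lay near the threshold, and of the 12 fits that each left out 1 library they held in 4 and 6, with edgeR adjusted p of 0.00889 and 0.00384 without control replicate 5. *Ttyh3* otherwise held without control replicate 2 or 3 or iNICD replicate 2. *Akt2* otherwise held without control replicate 2 or 6 or iNICD replicate 2, 4 or 6, and each call was lost when any other library was left out. Both were also lost with the replicate number as a block, at edgeR adjusted p of 0.0678 and 0.0699.

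**Figure D4:**
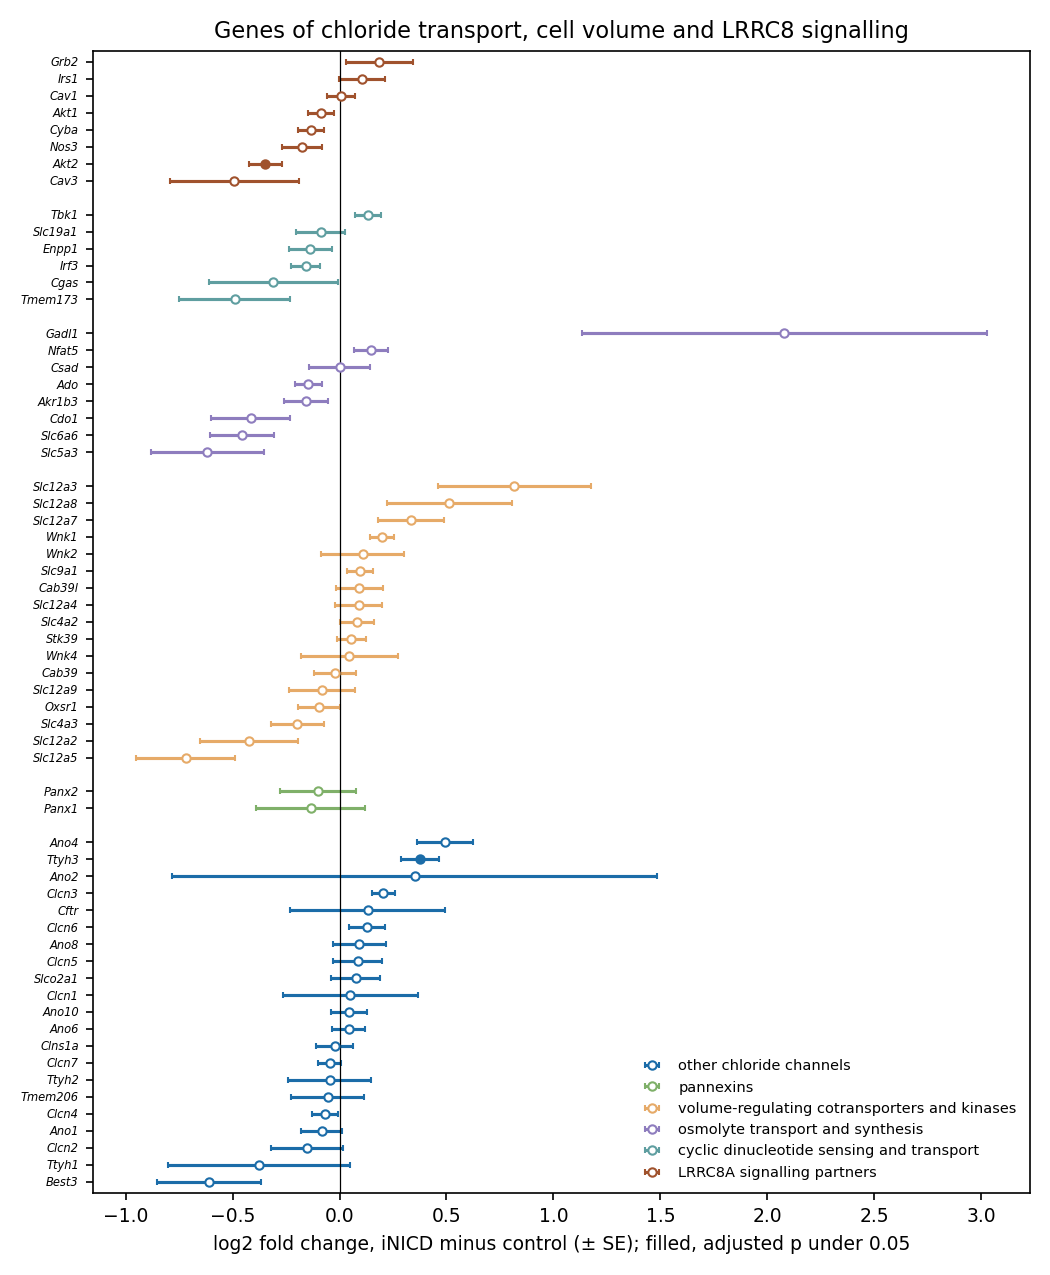
Log2 fold change of iNICD against control LA (x axis) with its SE for the 62 tested genes of 6 lists; filled points passed an adjusted p of 0.05. *Ttyh3* (0.38) and *Akt2* (-0.35) are the filled points, and *Gadl1* (2.08) has the widest departure with a wide SE.

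Of 9 other tested genes that start within 250 kb of the start of *Lrrc8e*, 0 passed the test by edgeR's quasi-likelihood test or DESeq2, with log2 fold changes from -0.19 to 0.45. An unadjusted p under 0.05 was reached by 3 of them, *Map2k7*, *Snapc2* and *Evi5l*. *Map2k7*, a kinase gene of the JNK pathway that starts 11.9 kb downstream, was at 0.18 (adjusted p = 0.202). The low-expressed *Tgfbr3l* was at 0.45 and the RNA-binding protein gene *Elavl1* at -0.19. Around *Lrrc8a*, 0 of 18 neighbours passed by either tool and 2 had an unadjusted p under 0.05. On chromosome 5, *Gbp6* and *Gbp11* upstream of *Lrrc8b* and *Zfp326* downstream of *Lrrc8d* made 3 more, of which 0 passed by either tool or had an unadjusted p under 0.05.

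**Figure D5:**
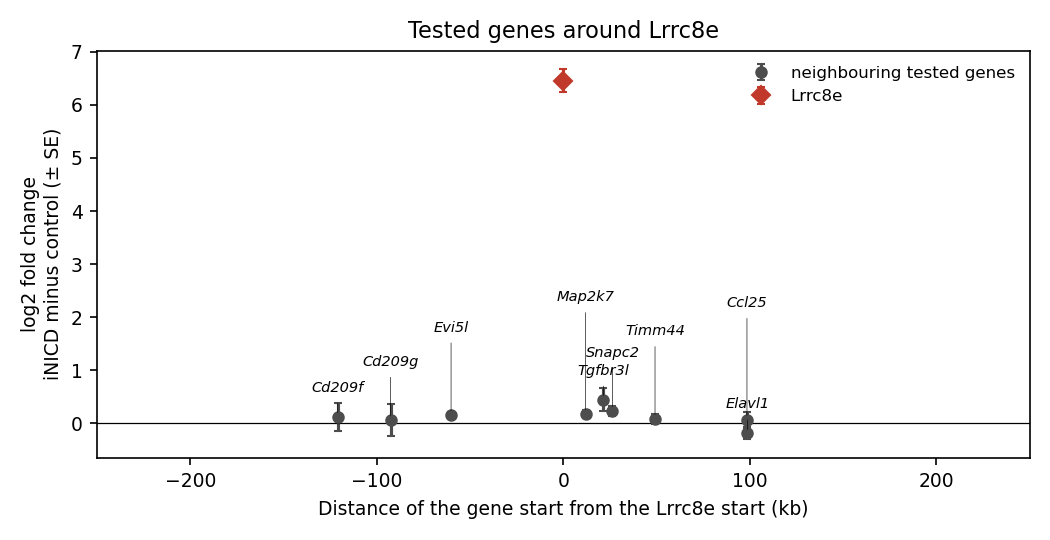
Log2 fold change of iNICD against control LA with its SE (y axis) for *Lrrc8e* and the 9 other tested genes that start within 250 kb, by distance of their start from that of *Lrrc8e* (x axis, kb). *Lrrc8e* lies at 6.46 and its neighbours at -0.19 to 0.45.

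The genes most like *Lrrc8e* over the 12 libraries were found by the root mean square difference of log2 normalized CPM, each gene centred on its mean. The nearest were *Nup62cl*, a gene related to the nucleoporin *Nup62* (0.640), *Cck*, which encodes the peptide cholecystokinin (0.721), and *Notch1* (0.800). Next came *2900052N01Rik*, a noncoding transcript (1.04), and the secreted phospholipase gene *Pla2g3* (1.10). The *Notch1* counts do not separate reads of the transgene from those of the endogenous gene. The median over all 13540 other tested genes was 3.18, and *Lrrc8a* to *Lrrc8d* were at 3.09 to 3.30. This likeness is a description over 12 libraries of 2 genotypes, so it mostly ranks genes by how far the groups lie apart. *Nup62cl* ranged from 7.80 to 13.03 normalized CPM in iNICD LA and was at most 0.258 in control LA.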

How the data were processed

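The deposited table held whole-number counts per gene name for 12 LA libraries, made by the authors from 50-base single-end stranded reads after removal of ribosomal RNA, with an exon length per gene. Per the labels' processing notes, cutadapt, STAR 2.4.2a and featureCounts were used with mm10. The study's methods also describe this pair of tools, with another STAR version, beside a TopHat2 and HTSeq route. The featureCounts route kept unambiguous reads, which lowers counts of genes with shared exons.

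Genes over 1 CPM in at least 6 libraries were tested on the counts with edgeR 4.0.16 (R 4.3.3), TMM scaling, the quasi-likelihood test and Benjamini-Hochberg adjustment at 0.05. Log2 expression used a prior count of 2. DESeq2 1.42.0, edgeR's exact test, other scalings and filters, sex, replicate blocks, other lengths and leaving out each library were alternatives. The fits were tested on simulated data. Exon overlaps and lengths came from GENCODE M21 and sequences from RefSeq (GRCm38.p6). Levels of subunits within a group were compared by a two-sided exact paired permutation test. Intervals are 95%. Nothing in the labels ties same-numbered libraries of the 2 genotypes together, so no pairing was used. The study's methods call the controls littermates without saying which mice shared a litter, so litter could not be modelled. Libraries of a group were all distinct.

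The members and the lists were chosen with earlier results of these data known. A further gene, outside the 78 listed genes counted, is not reported here. By rule the genes named were the 5 members, every gene of a list that passed the test (up to 6 a list), the 5 genes most like *Lrrc8e*, tested genes starting within 250 kb of a member, *Notch1*, and *Xist* as a sex check, which was in accord with the labelled sex of all 12 libraries. Any other gene named, markers and *Gm28035* among them, falls outside this rule and was named after its values were seen.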

Additional observations from a re-analysis of the deposited data

Results flagged for a closer look

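Values within groups of 6 libraries were examined for a single library far from the rest, by Dixon's ratio of gap to range. Of 26 groups of values, 4 had one. At 1 in 20, 1.3 would be expected if all groups were independent. Levels and shares of the same gene are not, so no excess over chance can be read from this. All 4 were values of *Lrrc8e*, in control replicate 6 and iNICD replicate 4. *Lrrc8e* in control replicate 6 was at 1.16 normalized CPM against 0.627 in the next control, from 25 reads against 17. Its share of LRRC8 transcripts was 2.73% against 1.42%. *Lrrc8e* in iNICD replicate 4 was at 85.2 normalized CPM against 62.5 in the next iNICD library, and its share was 63.5% against 54.0%. The level and the share of 1 gene in 1 library are not independent of each other.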

How the results depend on the processing

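*Lrrc8e* kept a log2 fold change of 6.33 to 6.66 when each library was left out and 6.42 to 6.46 under the other scalings, filters, tests and models. No sex or interaction result of *Lrrc8a* to *Lrrc8d* passed under any setting run. Over all genes, DESeq2 called 615 genes higher and 444 lower, edgeR's exact test called 279 lower, and leaving out 1 library gave 273 to 495 higher and 92 to 304 lower, the most without control replicate 5. Of the listed genes, 4 were higher and 3 lower by DESeq2, 2 were higher by the exact test and 2 with sex as a covariate, and 0 to 4 were higher and 0 to 2 lower when a library was left out, again the most without control replicate 5. The adjusted p of *Ttyh3* and *Akt2* ranged up to 0.0752 and 0.0875.

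The *Lrrc8e* share in iNICD LA was 41.0% with coding lengths, 48.5% with transcript lengths, 42.1% with unshared *Lrrc8a* exons and 40.4% with no length. *Lrrc8c* over *Lrrc8a* turned to -1.55 in control and -1.14 in iNICD LA with unshared exons, and ranged from -0.081 to 0.063 in control LA when a library was left out. *Lrrc8b* over *Lrrc8d* turned to -0.37 and -0.44 with coding lengths and -1.24 and -1.31 with transcript lengths. The coding, transcript and unshared lengths were chosen after seeing the data. The planned length from RefSeq proteins was not run.

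Same-numbered libraries did not vary together in every pair (mean correlation 0.12, over 0.1 in 4 of 6 pairs, and 5 of 12 libraries correlated best with their own number; 0.14, 4 and 4 by the numbers in the descriptions). With the title numbers as a replicate block, 1 listed gene was higher (*Ano4*) and 0 lower, and with the description numbers 0 and 0, so the calls of *Ttyh3* and *Akt2* were lost under both. Depth limits *Lrrc8e* in control LA, where 11 to 25 reads a library stand behind each value.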
